A study of Mus musculus with 4 samples.

Results

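The glycolytic enzyme genes described here are 10 mouse genes, out of 21900 protein-coding genes of the RefSeq table. Their list was chosen with earlier results of these data known. They are the hexokinases Hk1, Hk2 and Hk3, the phosphofructokinases Pfkp and Pfkl, and Aldoa, Gapdh, Pgk1, Pkm and Ldha. Each gene was taken from end to end with 2 kb added on either side, and every called region of H3K79me2 in that window was listed. The study used ChIP-seq, in which chromatin bound by an antibody is sequenced, to map H3K79me2, a histone H3 dimethylated at lysine 79. The cells were C57BL/6J bone marrow-derived dendritic cells (BMDCs), antigen-presenting cells grown out of bone marrow in culture. Of the 4 samples, the H3K79me2 library of cells given PBS and that of cells given 18 mM lysine for 6 h are described, and the 2 input samples were not used here. No time is stated for PBS. Each condition had 1 library, so replicate error is unknown, no test was made, and each value describes these 2 libraries. Read totals are unknown, since the deposited lists hold peaks without read counts. Where no peak was called, the mark may lie under the authors' calling threshold.

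Glycolysis splits glucose into pyruvate in the cytosol and yields ATP and NADH. Hexokinase traps glucose as its phosphate, phosphofructokinase makes the committed step, aldolase cleaves the sugar, and the lower part of the pathway recovers ATP, after which lactate dehydrogenase turns pyruvate into lactate. Dendritic cells raise glycolysis when they are activated. H3K79me2 is laid down by Dot1l in step with transcription and is generally found over the early part of transcribed genes, downstream of the start site.

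All 10 genes had at least 1 PBS peak, where 36.9% of all protein-coding genes had one in the same window. Since the 10 were chosen with earlier results of these data known, shares of all genes are given for scale only. They do not show a trait of glycolytic genes. Of 21 other enzymes of glycolysis, 7 had a PBS peak. In lysine 7 of the 10 had a peak, against 34% of all genes. When both lists held equal numbers of peaks, the counts of 10 and 7 genes became 7 and 7, but not of the same genes. There Hk3 still had 1492 (PBS) and 0 bp (lysine), and Aldoa had 0 and 841 bp. The 3 without a lysine peak were Hk3, Pfkl and Pgk1. Peaks of both lists thus stood at 7 of the 10, against 29.5% of all genes, and a lysine peak without a PBS peak at 0, against 4.47%. A PBS peak and no lysine peak was found on 7.42% of all genes, or on 20.1% of the 8090 genes with a PBS peak. At least 500 bp were covered at 8 of the 10 in PBS and at 6 in lysine, against 21.5% and 18.7% of all genes. The windows held 16 PBS peaks over 10511 bp and 13 lysine peaks over 10358 bp, so the lysine total was 0.985 of the PBS total. Over the windows of all protein-coding genes that ratio was 0.829. This near equality was the sum of unlike parts: the 7 genes with peaks in both libraries had 7946 bp in PBS and 10358 bp in lysine, a ratio of 1.30 against 0.875 over the 6464 genes with peaks in both, and the other 3 genes had 2565 bp in PBS alone. The total differed by -153 bp, a direction that 6 of the 8 alternatives did not keep. For the 7 genes with peaks in both, the ratio was 0.913 by the narrow blocks inside the peaks and 0.681 under a −log10 q minimum of 5. The total difference reached 2383 bp when both lists held equal numbers of peaks and -1995 bp by narrow blocks.

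Covered length was longer in lysine at Hk1, Pfkp, Gapdh, Pkm and Ldha and shorter at Hk2, Hk3, Pfkl, Aldoa and Pgk1. A difference of at least 1.5-fold is called here. Such a shortfall in lysine was found at 3 of the 10 genes, each without a lysine peak, against 14.1% of all genes and 38.1% of genes with a PBS peak. A gain of that size was found at 2 of the 10, Hk1 and Pfkp, against 7.96% and 9.44%. The median difference of the 10 was -152 bp, and over the 9070 genes with a peak in either library it was -64 bp, with quartiles of -352 and 138 bp.

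**Figure D1:**
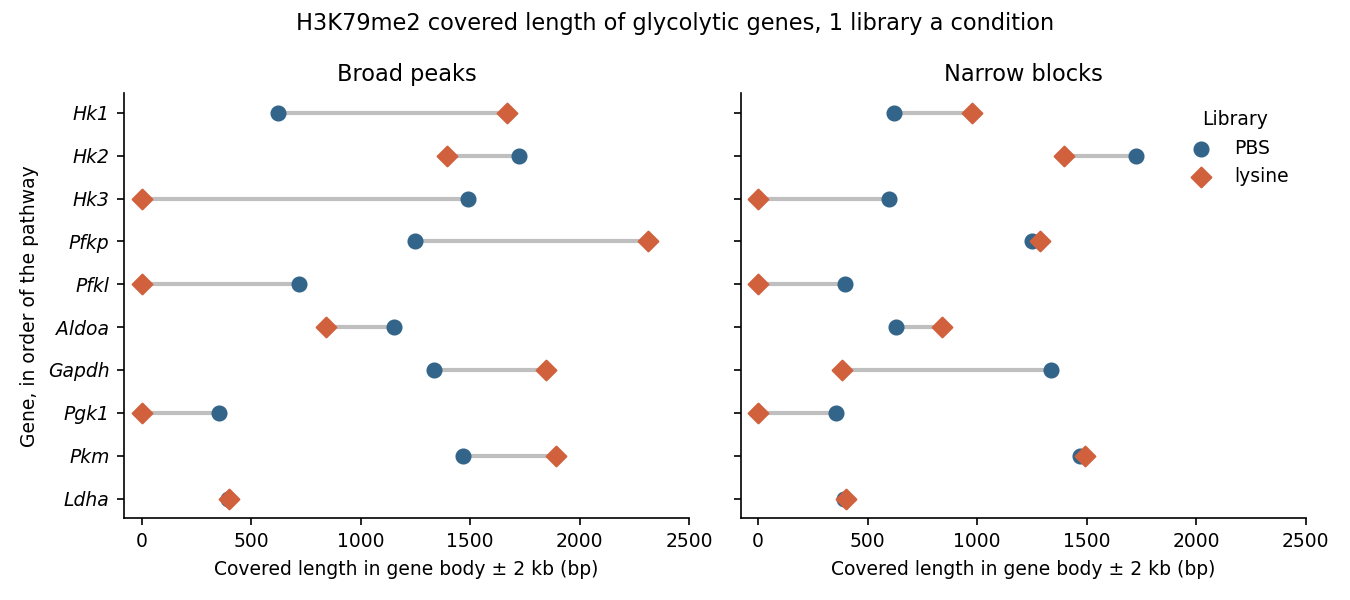
Covered length (bp, horizontal axis) of each gene body with 2 kb either side, for broad peaks (left) and the narrow blocks inside them (right). Circles are the PBS library and diamonds the lysine library, 1 value each, so there are no error bars. Hk3, Pfkl and Pgk1 sit at 0 in lysine in both panels, and Gapdh changes sides, from 1336 (PBS) and 1847 bp (lysine) by broad peaks to 1336 and 385 bp by blocks. Aldoa changes sides too, from 1152 and 841 bp by broad peaks to 630 and 841 bp by blocks.

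The peaks lay at the start sites. Start sites of these genes came from the RefSeq promoter table (GRCm38.p6), which lists 15 for the 10 genes. In PBS 10 of the 16 peaks covered a start, 1 at each gene, and in lysine 7 of the 13, 1 at each gene that had a peak. Over all protein-coding genes in that table, 26.1% had a covered start in PBS and 24.5% in lysine. These start peaks held 7915 of the PBS bp and 7051 of the lysine bp. Across all 21263 protein-coding starts, covered share was highest 50 bases upstream of the start (position -50), at 24.3% in PBS and 22.8% in lysine. By position 500 downstream it was 3.95% and 3.20%, and by position 1000 it was 1.77% and 1.39%. Of the 15 starts of the 10 genes, 11 were covered in PBS and 9 in lysine, against 23.8% and 22.3% of all starts. By position, each gene was counted from 1 start, the first that a PBS peak covers. PBS coverage at the start was fixed by that choice, so these counts are not like the shares over all starts. On that count 10 (PBS) and 7 (lysine) genes were covered at the start, 4 and 3 at position 500, and 2 and 2 at position 1000. The median width of their start peaks was 670 bp in PBS and 841 bp in lysine. Midpoints of these peaks ranged from -138 at Pfkp to 487.5 at Gapdh in PBS and from -217 at Aldoa to 497 at Pfkp in lysine. Over all starts the covered share was thus highest near the start itself in both lists, whereas the mark is generally known for its extent downstream. Of all peaks, 4105 in PBS and 3859 in lysine lay over a protein-coding start. No peak spanned any of the 10 genes. The gapped lists held 17 narrow blocks in the 16 PBS peaks and 15 in the 13 lysine peaks. A block filled the whole peak at 13 PBS peaks and 8 lysine peaks, so the other lysine peaks were in part weaker stretches joined to a block.

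**Figure D2:**
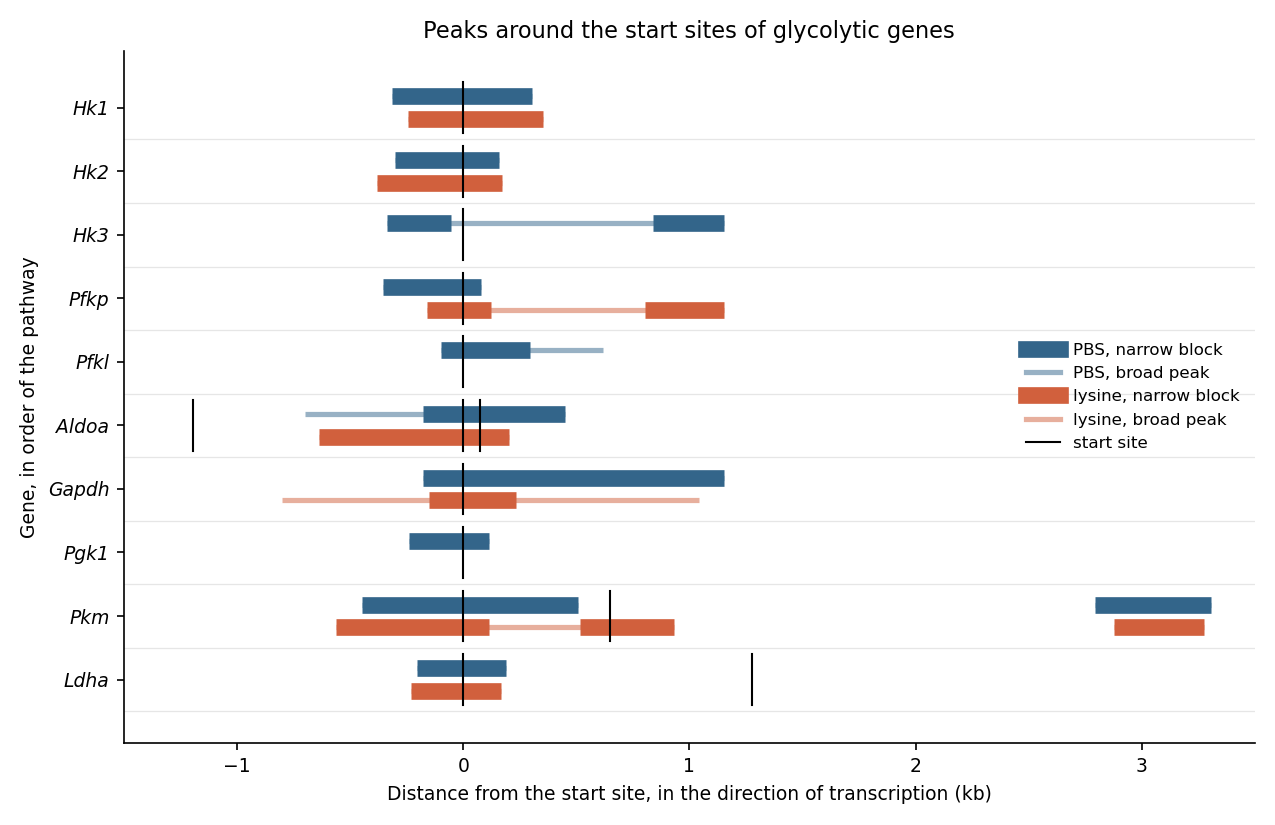
Peaks near the start site of each gene, plotted by distance from the start in kb in the direction of transcription. Thick bars are narrow blocks, thin bars the rest of the broad peak, blue PBS and orange lysine, and black lines start sites. Distances are counted from the first start that a PBS peak covers. Each of the 10 genes has a PBS bar across that start, and Hk3, Pfkl and Pgk1 have no lysine bar.

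**Figure D3:**
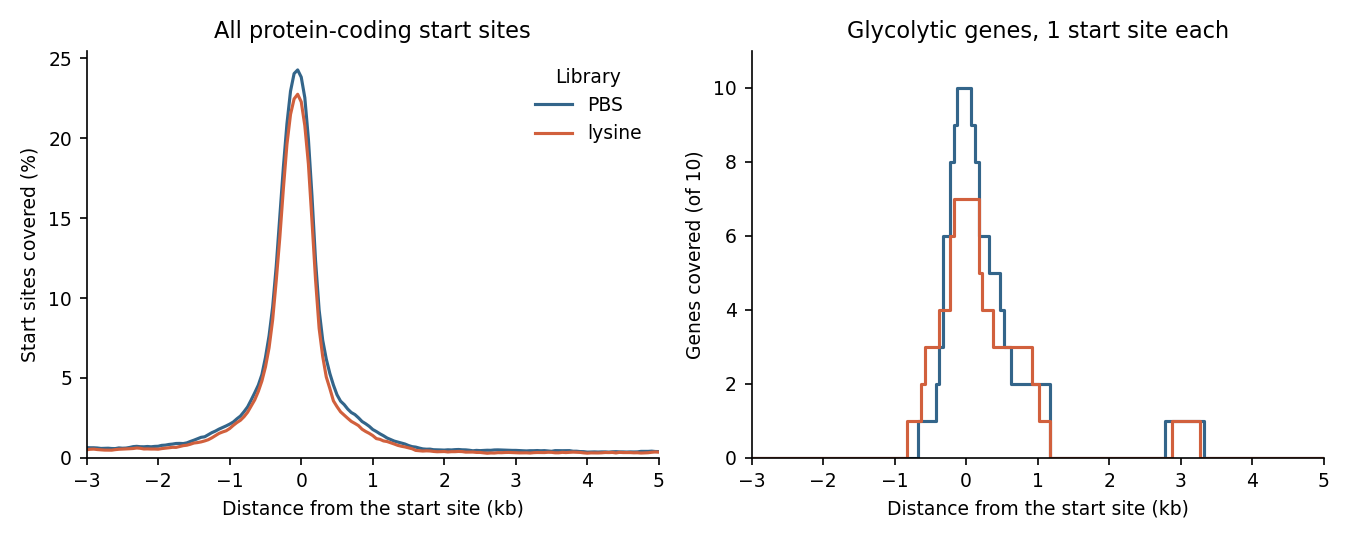
Share of all 21263 protein-coding start sites under a peak (left, %) and number of the 10 glycolytic genes under a peak (right), by distance from the start site in kb, for PBS (blue) and lysine (orange). Each of the 10 genes is counted from the first start that a PBS peak covers, which fixes the PBS count at the start. At the start 10 genes are covered in PBS and 7 in lysine. At 1 kb downstream 2 and 2 are covered, while the share of all starts there is 1.77% and 1.39%.

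Stretches just upstream of start sites are shown for Hk1, Hk2, Pgk1, Pkm and Ldha as examples. Each is 250 bases long, 5' to 3' on the gene's own strand, from RefSeq GRCm38.p6. Both Hk1 starts are given because only the downstream one lay under a peak. Hk2, Pkm and Ldha were covered in both libraries, and Pgk1 in PBS alone. Capitals mark ACGTG on either strand, a form of the core of the hypoxia response element bound by Hif1a, including where it is part of the E-box CACGTG. The form GCGTG was not searched and is not marked.
Hk1, upstream start, chr10:62379909-62380158, minus strand: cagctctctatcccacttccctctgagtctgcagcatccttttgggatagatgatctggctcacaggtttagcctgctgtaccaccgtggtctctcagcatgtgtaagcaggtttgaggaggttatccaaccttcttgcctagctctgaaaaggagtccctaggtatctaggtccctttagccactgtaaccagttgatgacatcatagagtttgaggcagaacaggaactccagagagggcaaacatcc
Hk1, downstream start, chr10:62340422-62340671, minus strand: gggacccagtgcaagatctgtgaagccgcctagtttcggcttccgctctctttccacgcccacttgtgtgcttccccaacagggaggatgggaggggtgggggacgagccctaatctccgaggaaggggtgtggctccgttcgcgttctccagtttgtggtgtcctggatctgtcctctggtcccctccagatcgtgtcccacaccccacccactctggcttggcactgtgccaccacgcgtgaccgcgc
Hk2, chr6:82774455-82774704, minus strand: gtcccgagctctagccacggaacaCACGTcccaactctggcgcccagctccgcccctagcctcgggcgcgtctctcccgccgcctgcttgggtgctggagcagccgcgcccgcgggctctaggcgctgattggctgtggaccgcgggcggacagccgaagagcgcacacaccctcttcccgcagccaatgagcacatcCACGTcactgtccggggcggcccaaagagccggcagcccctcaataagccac
Pgk1, chrX:106186850-106187099, plus strand: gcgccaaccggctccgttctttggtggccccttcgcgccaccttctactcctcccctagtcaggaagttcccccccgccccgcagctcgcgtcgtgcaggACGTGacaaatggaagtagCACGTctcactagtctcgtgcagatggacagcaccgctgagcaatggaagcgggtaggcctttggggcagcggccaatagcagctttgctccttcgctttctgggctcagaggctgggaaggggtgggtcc
Pkm, upstream start, chr9:59656326-59656575, plus strand: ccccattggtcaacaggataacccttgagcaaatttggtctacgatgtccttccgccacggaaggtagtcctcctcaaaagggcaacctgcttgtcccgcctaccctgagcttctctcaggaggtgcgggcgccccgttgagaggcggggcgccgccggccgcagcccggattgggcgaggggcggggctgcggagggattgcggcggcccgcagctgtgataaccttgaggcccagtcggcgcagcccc
Ldha, upstream start, chr7:46845554-46845803, plus strand: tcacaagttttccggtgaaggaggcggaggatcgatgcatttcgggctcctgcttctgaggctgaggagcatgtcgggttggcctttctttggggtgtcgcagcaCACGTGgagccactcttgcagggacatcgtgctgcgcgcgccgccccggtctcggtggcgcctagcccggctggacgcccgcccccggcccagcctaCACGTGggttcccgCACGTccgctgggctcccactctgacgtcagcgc

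ACGTG stood in 7 of the 15 stretches, at 6 of the 10 genes, and in 17.8% of the same stretches of all protein-coding starts. Ldha held 5 matches, which came from 2 E-boxes, each counted on both strands, and 1 further ACGTG. Its E-boxes began at positions -145 and -48 from the start. CACGTG was found at 1 of the 15 starts, that of Ldha, and at 6.63% of all. The GC box GGGCGG stood at 7 of the 15 starts against 42.6% of all, CCAAT at 6 against 35.4%, and TATAAA at 0 against 11.6%. Each motif was searched on both strands, and the stretches of the 2 downstream Aldoa starts overlap and share their matches in part. The base composition ranged from 47.2% to 69.6% GC with a median of 62.8%, and the median of all starts was 55.6% (quartiles 47.2% and 64%). A match describes these letters and is not a binding site. Since GCGTG was not searched, a stretch with 0 matches of ACGTG may still hold that form of the core. At starts covered in both libraries the number of ACGTG matches was 5 at Ldha, 2 at Hk2, 1 at each of the downstream Aldoa starts and 0 at Hk1, Pfkp, Gapdh and the upstream Pkm start. At starts covered in PBS alone it was 2 at Pgk1, 1 at Hk3 and 0 at Pfkl. The downstream Pkm start, covered in lysine alone, had 1.

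Hexokinases carry out the entry step. Hk1, the widely expressed hexokinase that binds mitochondria (chromosome 10, 62268855 to 62379920, minus strand), had the strongest peaks of the 10 genes in both libraries. Its PBS peak ran from 62340117 to 62340738 (622 bp) and its lysine peak from 62340067 to 62340667 (601 bp), and they shared 551 bp. The PBS peak had a fold enrichment of 7.47 over local background and a −log10 q of 12.1, rank 724 of 11926 in its list. In lysine the values were 8.70 and 15.3, rank 267 of 9805. Fold and −log10 q are the authors' values and serve here to place a peak within its own list, since lists of different lengths give ranks that show no change. Both peaks covered the downstream start at 62340421, from -317 to 304 in PBS and from -246 to 354 in lysine, counted from that start. The upstream start at 62379908 lay under no peak in either list. The non-coding gene Hk1os begins under the same peaks, at 62340234 on the other strand, so the peaks cannot be given to Hk1 alone. Lysine had a further peak inside Hk1, from 62322924 to 62323990 (1067 bp, fold 4.28, −log10 q 3.26), with no PBS partner. With it Hk1 had 622 (PBS) and 1668 bp (lysine), and the gain lay in this peak, since the start peak was slightly shorter in lysine. Its narrow block was 376 bp. Under a −log10 q minimum of 5 it dropped out and the difference turned to -21 bp.

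Hk2, the inducible hexokinase (chromosome 6, 82725025 to 82774454, minus strand), had 4 peaks in PBS, the most of the 10 genes there, and 3 in lysine, as many as Pfkp. At its start the PBS peak lay from 82774296 to 82774757 (462 bp, −log10 q 7.16) and the lysine peak from 82774284 to 82774835 (552 bp, −log10 q 6.81), and the whole PBS peak was inside the lysine peak. Further peaks lay deep in the gene. Between 9886 and 10374 bp from the start, PBS had 82764080 to 82764568 (489 bp, −log10 q 4.12), and lysine had 82764107 to 82764480 (374 bp, −log10 q 2.66). The next pair was at 82752967 to 82753277 in PBS (311 bp, −log10 q 1.95) and at 82753017 to 82753486 in lysine (470 bp, −log10 q 4.05). These 2 internal positions were called in both libraries. The last, 82741395 to 82741857 (463 bp, −log10 q 4.30), was called in PBS alone. In total Hk2 had 1725 bp in PBS and 1396 bp in lysine. The difference of -329 bp turned to 90 bp under a −log10 q minimum of 5, where the start peak alone was left in each list.

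Hk3, a hexokinase typical of myeloid cells (chromosome 13, 55005985 to 55021475, minus strand), had the widest PBS peak of the 10 genes and no lysine peak. It ran from 55020232 to 55021723 (1492 bp), with fold 4.01 and a −log10 q of 2.75, at percentile 25.8 of its list by strength and 96.4 by width. Inside it were 2 narrow blocks, of 285 bp before the start (55021439 to 55021723) and of 313 bp after it (55020232 to 55020544), with the start itself between them. Hk3 thus had 1492 bp in PBS and 0 bp in lysine, or 598 and 0 bp by blocks. Under a −log10 q minimum of 5 Hk3 had no peak in either library.

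**Figure D4:**
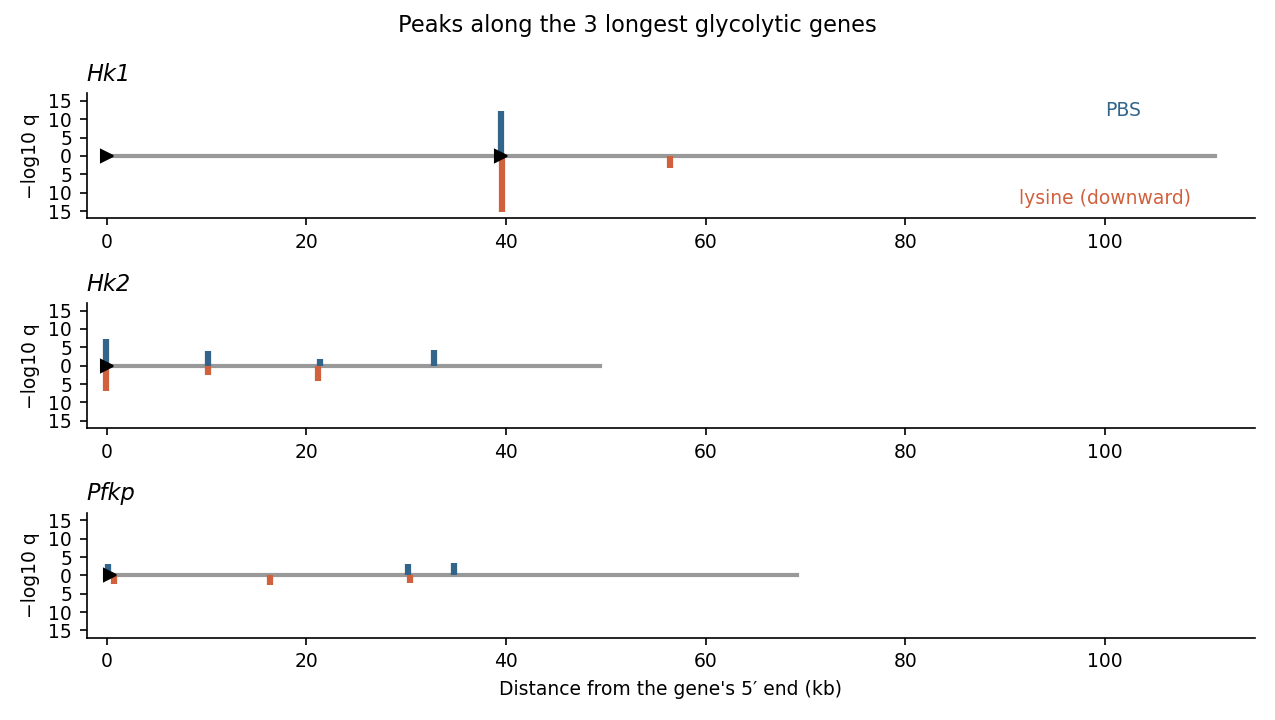
Peaks along Hk1, Hk2 and Pfkp, the 3 longest of the 10 genes, by distance from the gene's 5′ end in kb. Bar height is the authors' −log10 q, PBS upward and lysine downward, grey lines are gene bodies and black arrowheads start sites. Hk1 has its tall bars at the downstream start, 12.1 in PBS and 15.3 in lysine, while the bars inside Hk2 and Pfkp stay below 5.

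Phosphofructokinase controls the committed step, and the 2 isoform genes among the members, Pfkp and Pfkl, differed in opposite directions by broad peaks. A further isoform gene, Pfkm, was counted with the other enzymes of glycolysis (named here after its values were seen). Pfkm had 0 bp in PBS and 430 bp in lysine, in a window shared with Senp1. Its lysine call reached a −log10 q of 6.32, above those of Pfkp and Pfkl. Pfkp, the platelet type (chromosome 13, 6579874 to 6649060, minus strand), had 1249 bp in PBS and 2313 bp in lysine, the most of any member in lysine. Each library had 3 peaks there. At the start PBS had 6648694 to 6649124 (431 bp) and lysine 6647618 to 6648930 (1313 bp), and the overlap was 237 bp. The PBS peak reached from -353 to 77 around the start and the lysine peak from -159 to 1153, so the lysine call ran further into the gene. Within the lysine peak lay 2 narrow blocks, of 281 bp across the start and of 349 bp near its far end. Deep in the gene, near 29757 bp from the start, PBS had 6618657 to 6619184 (528 bp) and lysine 6618386 to 6619014 (629 bp, with a narrow block of 287 bp). A PBS peak at 6614073 to 6614362 (290 bp) and a lysine peak at 6632543 to 6632913 (371 bp) had no partner, and the latter lay within the non-coding gene Gm35730. All of these peaks were weak, with a −log10 q of 3.03 to 3.51 in PBS and 2.02 to 2.58 in lysine. By blocks the gain was 39 bp, from 1249 to 1288 bp. Under a fold minimum of 4 the difference turned to -290 bp.

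Pfkl, the liver type (chromosome 10, 77986947 to 78009807, minus strand), had 1 PBS peak and no lysine peak. It lay from 78009190 to 78009907 (718 bp, −100 to 617 from the start), with a narrow block of 395 bp across the start. Its fold was 3.40 and its −log10 q 1.63, at percentile 2.73 of the PBS list. This was the weakest peak of the 10 genes, and under a −log10 q minimum of 2 Pfkl had no peak in either library.

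Aldoa encodes aldolase A, which cleaves fructose bisphosphate (chromosome 7, 126795234 to 126800994, minus strand). Its PBS peak ran from 126798802 to 126799953 (1152 bp) and its lysine peak from 126799051 to 126799891 (841 bp), entirely within the PBS peak. Both covered the 2 downstream starts, 126799254 and 126799178, and neither reached the upstream start at 126800447. The PBS peak was the weaker within its list, with a −log10 q of 2.05 (percentile 10.7), against 3.36 (percentile 42.0) for the lysine peak. Its narrow block was 630 bp in PBS and the whole 841 bp in lysine. So the direction depended on what was counted: -311 bp by broad peaks, 211 bp by blocks, and 841 bp with equal numbers of peaks or under a fold minimum of 4.

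Gapdh, which makes NADH in the lower pathway (chromosome 6, 125161852 to 125166467, minus strand), had the largest covered share of its body, 28.9% in PBS and 37.7% in lysine. The PBS peak lay from 125164618 to 125165953 (1336 bp, −log10 q 5.83) and the lysine peak from 125164729 to 125166575 (1847 bp, −log10 q 3.35). They shared 1225 bp. The lysine peak was the widest of the 10 genes, rank 109 of 9805 by width. It extended further upstream, from -802 to 1044 against -180 to 1155 in PBS, and its only narrow block was 385 bp at the start, while the whole PBS peak was a block. The gain of 511 bp by broad peaks therefore stood beside a shortfall of -951 bp by blocks, and under a −log10 q minimum of 5 only the PBS peak was left.

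Pgk1, the first enzyme of the pathway to recover ATP (chromosome X, 106187100 to 106203699, plus strand), had a PBS peak of 355 bp from 106186860 to 106187214, across the start from -240 to 114. Its fold was 3.67 and its −log10 q 2.04, at percentile 10.5. No lysine peak was called. Under a fold minimum of 4, or with equal numbers of peaks, Pgk1 had no peak in either library.

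Pkm, which encodes pyruvate kinase M and makes pyruvate and ATP (chromosome 9, 59656576 to 59679372, plus strand), was the only one of the 10 whose direction was the same under all 8 alternatives. It had 1469 bp in PBS and 1893 bp in lysine. At the start PBS had 59656130 to 59657083 (954 bp, fold 7.30, −log10 q 11.4) and lysine 59656012 to 59657508 (1497 bp, fold 7.28, −log10 q 11.6). The PBS peak lay wholly inside the lysine peak. The PBS call covered the upstream start at 59656576 and ended before the downstream start at 59657227, which lay under the lysine call, in its second narrow block of 416 bp (59657093 to 59657508). A further peak inside the gene was called in both, from 59659369 to 59659883 in PBS (515 bp, −log10 q 7.80) and from 59659455 to 59659850 in lysine (396 bp, −log10 q 3.62). By blocks Pkm had 1469 and 1490 bp, a difference of 21 bp, because the 2 blocks of the lysine start peak leave a gap. Under a −log10 q minimum of 5 the difference was 28 bp (1469 and 1497 bp), so the direction was kept there by a small margin.

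Ldha, which makes lactate from pyruvate (chromosome 7, 46842274 to 46855627, plus strand), was nearly the same in both libraries. The PBS peak ran from 46845599 to 46845991 (393 bp) and the lysine peak from 46845573 to 46845972 (400 bp), with 374 bp shared. Both covered the upstream start at 46845804 and neither the downstream start at 46847082. Their −log10 q was 2.91 in PBS and 3.85 in lysine. Of the 4 genes with more than 1 listed start, Hk1, Aldoa and Ldha each had a start without a peak in either library, and at Pkm both starts were covered in lysine.

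The hexokinase Hk1 and the pyruvate kinase Pkm had the strongest peaks of the 10 genes in both lists. Of the peaks at the 10 genes, only their start peaks stood at or above percentile 90 of the list by −log10 q. The start peak of Hk2 stood at percentile 79.8 in PBS and 79.3 in lysine. Over the 10 genes the median −log10 q of a PBS peak was 3.33, against 4.03 in the whole list, and that of a lysine peak was 3.36, against 3.85. Above the list median stood 7 of 16 PBS peaks and 4 of 13 lysine peaks. The median width of their peaks was 502 bp in PBS and 601 bp in lysine, against 456 and 450 bp in all. Peaks of 1 kb or more numbered 3 of 16 and 4 of 13, against 9.89% and 8.52% of all peaks.

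**Figure D5:**
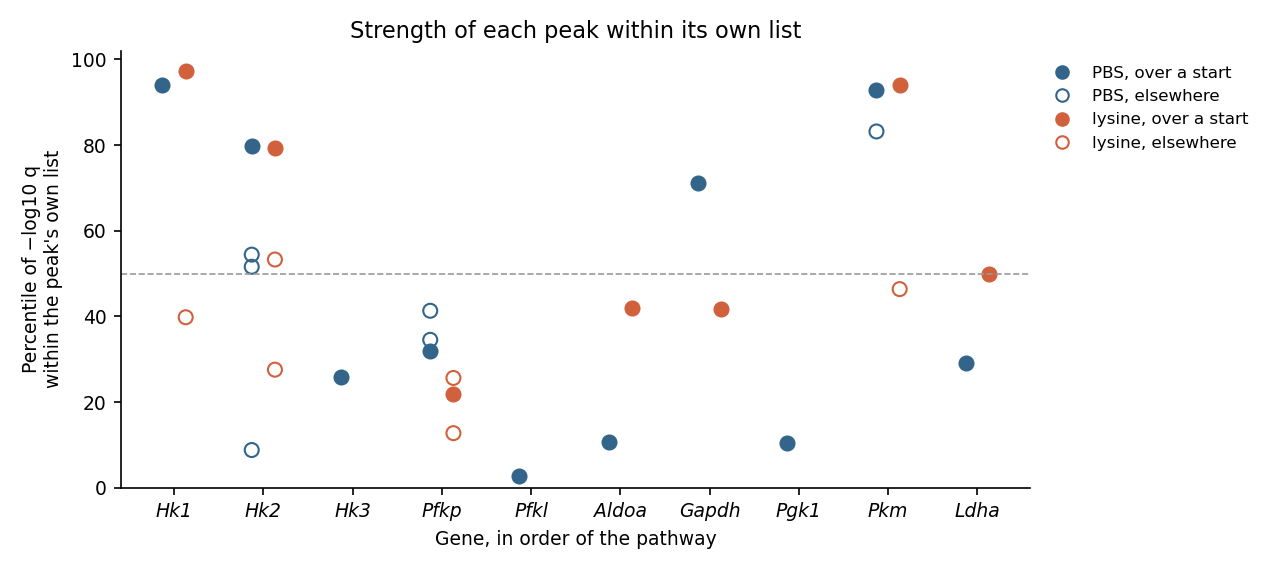
Percentile of each peak's −log10 q within its own list, by gene, for PBS (blue) and lysine (orange), with filled circles for peaks over a start site and open circles for peaks elsewhere. The dashed line is the list median. The start peaks of Hk1 and Pkm lie above percentile 90 in both lists, and the PBS peaks of Pfkl, Aldoa and Pgk1, all over starts, lie at 2.73, 10.7 and 10.5.

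At least 1 bp of overlap with the other list was found for 11 of the 16 PBS peaks and 11 of the 13 lysine peaks. Over the whole lists 61.9% and 75.3% did. Among PBS peaks over a protein-coding start the share was 81.0%, and 7 of the 10 start peaks of these genes had a partner. For lysine start peaks the numbers were 85.6% and 7 of 7. Away from starts 4 of 6 PBS peaks and 4 of 6 lysine peaks had one, against 51.9% and 68.7% of all such peaks. The PBS peaks without a partner had a −log10 q of 1.63 at Pfkl, 2.04 at Pgk1, 2.75 at Hk3, 3.51 at Pfkp and 4.30 at Hk2. All 5 PBS peaks of at least 5 had a lysine partner, as did 87.4% of such peaks in the whole list. Between 2 and 3 the whole PBS list had a partner for 39.2% of its peaks, and below 2 for 29.2%. The lists shared 6033 bp at the 10 genes, or 57.4% of what PBS covered there and 58.2% of what lysine covered.

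Other genes of glucose use were taken from 4 lists. For scale beside their counts, 36.9% of all protein-coding genes had a PBS peak in the same window and 34% a lysine peak. Of 21 other enzymes of glycolysis 7 had a peak in each library and 13 had none, and their covered length was 5303 (PBS) and 5292 bp (lysine). Those without a peak included Gpi1 and Tpi1, the isomerases of the main route in most cells (named here after their values were seen). Pgam1, the phosphoglycerate mutase (895 and 1022 bp), had strong peaks, with a −log10 q of 15.1 in PBS and 15.2 in lysine. Eno3, an enolase, had 908 and 1804 bp in a window shared with Rnf167, Pfn1 and Spag7, the ADP-dependent glucokinase Adpgk 1291 and 340 bp, and Aldoc 543 and 0 bp in a window shared with Spag5 and Pigs. The called differences of this list of 21 were 2 shortfalls and 2 gains, against 14.1% and 7.96% of all genes.

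The 20 regulators of glycolysis had the lowest lysine to PBS ratio of the 4 lists, at 0.581, from 11217 bp (PBS) and 6515 bp (lysine). Covered length was shorter in lysine at 10 of them and longer at 3, with 7 and 1 called and a median difference of -25 bp. The shares called were 14.1% and 7.96% of all genes, and 38.1% and 9.44% of genes with a PBS peak. Such a peak was found at 13 of the 20. Myc, a transcription factor that acts on many glycolytic genes, had 2492 and 875 bp. Pfkfb3, which makes the activator of phosphofructokinase, had 1618 and 1127 bp, and Mlxip, a glucose-sensing factor, 967 and 1099 bp. Neither library lacked a peak at any of these 3.

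Peaks lay at 8 (PBS) and 7 (lysine) of 17 genes of glucose and lactate transport, over 5377 and 4150 bp, with 3 called shorter in lysine and 1 longer. The main glucose transporter gene Slc2a1 had 439 and 1106 bp, the lysosomal transporter gene Slc2a6 1144 and 1004 bp, and the lactate transporter gene Slc16a1 1478 and 432 bp. In the 26 genes of pyruvate, pentose phosphate and glycogen side routes, 21 and 18 had a peak (12446 and 9498 bp), with 9 called shorter and 3 longer. Of all genes 14.1% and 7.96% were so called, and of genes with a PBS peak 38.1% and 9.44%. Gbe1, the glycogen branching enzyme, had 1785 and 699 bp. Pdhb, a subunit of pyruvate dehydrogenase whose window reaches Pxk, had 1195 and 566 bp, and Pgd of the pentose phosphate route 1154 and 700 bp. Pgm1, a phosphoglucomutase, had 0 and 572 bp. The lysine to PBS ratios of these 2 lists were 0.772 and 0.763, below the 0.829 of all genes, and that of the enzymes was 0.998.

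Markers of the labelled cell type were partly covered. A peak was called at 10 (PBS) and 8 (lysine) of 15 dendritic cell markers, over 12418 and 7571 bp. Covered length was shorter in lysine at 8 of them, such as H2-Ab1 (2602 and 0 bp), and longer at 2, Cd74 (900 and 2441 bp) and Csf2ra (1459 and 1512 bp). The calls at Cd74, in a window shared with Tcof1, were weak. They reached a −log10 q of 1.69 in PBS and 1.99 in lysine, where the list minima were 1.37 and 1.32. The PBS call at H2-Ab1 reached 2.42. No peak was called in either library at H2-Aa, Ccr7, Irf4, Csf2rb and Batf3. Macrophage and monocyte markers had a peak at 5 of 7 genes in PBS and 1 of 7 in lysine (2918 and 1160 bp), and Adgre1 and Lyz2 had none in either. The lysine call, at Csf1r in a window shared with Hmgxb3, reached a −log10 q of 1.39, near the list minimum of 1.32. Neutrophil markers had 1 of 6 in each library, but not the same gene: S100a8 had 439 (PBS) and 0 bp (lysine), and Camp 0 and 300 bp. T cell markers had 1 of 4 in each, and B cell markers and 6 hepatocyte or neuron genes none. The part of cell composition in the values at the glycolytic genes was not tested.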

How the data were processed

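H3K79me2 ChIP-seq and input libraries of BMDCs given PBS or lysine were sequenced as pairs of reads, per the labels' protocols, and samples were grouped by title. Tools named in the submitters' processing notes, without roles, are MACS2 2.1.2, Bowtie2 2.3.4.1, Trimmomatic 0.38, cutadapt 1.18, ChIPseeker, Picard and FastQC, and the build is GRCm38. The peak threshold, and whether inputs served as controls, were not given in the sources used here. Peaks were deposited per sample. The files have no header and were read by the MACS2 layout. The deposited fold enrichment is a linear ratio to local background, the deposited −log10 p and −log10 q are averages over a peak, and the deposited score is derived from −log10 q. These values move with depth, which is unknown, and were used within a list. The authors' gapped lists give narrow blocks of the same regions, and blocks of 1 bp were left out.

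Covered length is the number of bp under merged broad peaks in the gene body with 2 kb either side. Genes came from RefSeq GRCm38.p6, the build of the lists, and all 10 symbols matched. Exons were not used here. Starts and sequences came from the RefSeq promoter table, which holds 17492 of the protein-coding genes. The members, lists and thresholds were chosen with earlier results of these data known. All members are named, and from each of the 4 lists of glucose use the 3 genes with most covered length and those with at least 500 bp in 1 library and 0 in the other. Gpi1, Tpi1 and Pfkm were named outside this rule. Python 3.11.15, numpy 2.4.6, pandas 2.3.3 and matplotlib 3.10.9 were used. The covered-length code was tested on simulated data and gave the same values as bedtools 2.31.1 at all genes, with 0 exceptions. Alternatives changed the window, the peak threshold, the number of peaks, the kind of region and the overlap.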

Additional observations from a re-analysis of the deposited data

How the results depend on the processing

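The total difference over the 10 genes, -153 bp, had no stable direction. It was 195 bp by gene body alone, 255 bp with 5 kb either side, 876 bp under a −log10 q minimum of 2, 655 bp under a fold minimum of 4, 1744 bp by peaks from 1 kb upward and 2383 bp with equal numbers of peaks. It was -1239 bp under a −log10 q minimum of 5 and -1995 bp by narrow blocks. Over all protein-coding genes the lysine total was below PBS under each of these 8 alternatives. Under a −log10 q minimum of 5 the number of genes with a peak was 4 in PBS and 3 in lysine, and by peaks from 1 kb upward 3 and 4. It was 9 and 7 under a −log10 q minimum of 2, 7 and 6 under a fold minimum of 4 and 7 and 7 with equal numbers of peaks. Among single genes 1, Pkm, kept its direction under all 8 and 5 turned under at least 1: Aldoa (97 bp with 5 kb either side, 211 bp by blocks, 841 bp with equal numbers of peaks and under a fold minimum of 4), Gapdh (-951 bp by blocks), Pfkp (-290 bp under a fold minimum of 4), and, under a −log10 q minimum of 5, Gapdh (-1336 bp), Hk1 (-21 bp) and Hk2 (90 bp). Hk3, Pfkl, Pgk1 and Ldha did not turn but showed no difference under 1, 5, 4 and 2 alternatives. The Pkm difference ranged from 21 to 1497 bp over the 8 alternatives. With overlap of at least 50% of the peak 11 PBS and 10 lysine peaks had a partner, and with 50% of both peaks 10 and 10. The cause of these changes was not tested. No paired analysis was possible because each condition has 1 library, and for the same reason no replicate could be left out.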

Other observations

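Processed pseudogenes share sequence with several of these genes, so reads could be placed at either copy. The RefSeq table holds 11 pseudogenes named after Gapdh, Ldha, Pgk1 and Aldoa, and 0 of them had a peak in either library. Pseudogenes under other names were not searched, and bodies were taken without the 2 kb on either side. These counts therefore cannot tell where such reads were placed. The authors' treatment of reads with several placements was not given in the sources used here.

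Pfkp had the most covered length of the 10 genes over both libraries, at 1249 (PBS) and 2313 bp (lysine). The 5 protein-coding genes closest to it in these 2 values, by the sum of the absolute differences, were Sptbn4 (1321 and 2333 bp), Cfl1 (1252 and 2439 bp), Mus81 (1280 and 2424 bp), Ube4a (1149 and 2262 bp) and Rap2b (1245 and 2128 bp). With 1 library per condition this likeness rests on 2 values per gene.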
